A study of Mus musculus with 6 samples.

Results

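The 8 genes described here encode intermediate filament proteins: the simple epithelial keratins Krt8, Krt18 and Krt19, and the muscle and mesenchymal filament proteins desmin (Des), vimentin (Vim), nestin (Nes), synemin (Synm) and syncoilin (Sync). They were taken by name from tables that list 21572 gene symbols, and all 8 were found there. The set was chosen by name but selected on measured values too, the FPKM and fragments of Krt8 and Krt18, which stood out between denervated and innervated muscle. Differences of the members between denervated and innervated muscle are therefore a description, given with no p-value of a member. Calls of members in these comparisons are only counted below, beside the share over all genes, and nothing is read from those counts. The members were tested between genotypes, within denervated muscle. The denervated libraries of that test also entered the values on which Krt8 and Krt18 were selected, so it is not free of that selection. Lists of other genes and of cell type markers were likewise chosen with earlier results of these data known. Their calls between denervated and innervated muscle are thus not independent of those results.

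The samples were polyadenylated RNA of soleus, a slow hindlimb muscle, of adult C57BL/6 mice. There were 3 groups of 2 libraries: soleus of Dach2-/-/Hdac9-/- mice denervated for 3 days, wild-type (WT) soleus denervated for 3 days, and innervated WT soleus. Dach2 encodes a nuclear co-factor of transcription, and Hdac9 encodes a histone deacetylase of class II. Knockout soleus with its nerve intact was not analysed here. The labels give neither the deleted exons, nor the cells in which the alleles are lost, nor whether the libraries of a group came from separate animals. What the p-values measure is thus the spread between libraries, and that spread may be technical.

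Intermediate filaments are rope-like polymers that link the contractile apparatus of a muscle fibre to its membrane, nuclei and mitochondria. Desmin is the main such protein of mature fibres and surrounds the Z-discs, where synemin and syncoilin join it and reach the dystrophin complex at the membrane. Nestin and vimentin are filament proteins of muscle precursors and other mesenchymal cells, and nestin persists at neuromuscular and myotendinous junctions of adult fibres. Simple epithelial keratins are built from obligate pairs of a type II keratin such as Krt8 and a type I keratin such as Krt18 or Krt19. They are best known from epithelia of liver, gut and glands, and Krt8 and Krt19 have also been found at costameres, the lateral attachment sites of muscle fibres.

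Libraries held between 25529434 and 46305449 fragments. Levels are the authors' FPKM, fragments per kilobase of transcript scaled by a factor of the library, and fragments are their estimated counts. Dach2 was at 0.961 and 0.681 FPKM in the libraries labelled knockout, 0.519 and 0.536 FPKM in denervated WT and 3.85 and 4.29 FPKM in innervated WT libraries. Hdac9 was at 0.534 and 0.181 FPKM in knockout-labelled, 1.83 and 0.285 FPKM in denervated WT and 4.10 and 3.14 FPKM in innervated WT libraries. Dach2 was thus not lower in the knockout-labelled libraries than in WT libraries of the same treatment, and values over a whole gene can hold fragments from exons outside a deleted part. The deletion is not checked by these values, and the group is called DKO-labelled below. The fibre marker Ckm, the muscle creatine kinase, was at 3302 FPKM or more in every library. Acta1, the skeletal muscle actin gene, is listed at 0 in every library, and a 0 in these tables can be a failed estimate.

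Krt8 (chromosome 15, 101827141 to 101834773) and Krt18 (chromosome 15, 101858646 to 101862457) are neighbours on build mm9, separated by 23.9 kb. Krt19 lies on chromosome 11, 100002125 to 100007233. The 250 bases before the annotated starts of Krt8 and Krt18 are shown because these genes had the highest levels relative to innervated muscle. Those of Des, whose level differed little, and of Synm, which was lower, stand beside them. They are RefSeq sequences on build GRCm38.p6, which is not the build of the files, at chr15:102004343-102004592 (minus strand) for Krt8, chr15:102027966-102028215 (plus strand) for Krt18, chr1:75360042-75360291 (plus strand) for Des and chr7:67759743-67759992 (minus strand) for Synm. Each is written 5′ to 3′, and capitals mark each CANNTG, the E-box letters read by basic helix-loop-helix factors such as myogenin.
Krt8: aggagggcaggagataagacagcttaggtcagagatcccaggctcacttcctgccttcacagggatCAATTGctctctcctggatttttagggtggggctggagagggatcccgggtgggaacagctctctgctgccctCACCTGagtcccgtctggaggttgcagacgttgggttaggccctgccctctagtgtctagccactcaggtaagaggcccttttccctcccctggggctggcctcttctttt
Krt18: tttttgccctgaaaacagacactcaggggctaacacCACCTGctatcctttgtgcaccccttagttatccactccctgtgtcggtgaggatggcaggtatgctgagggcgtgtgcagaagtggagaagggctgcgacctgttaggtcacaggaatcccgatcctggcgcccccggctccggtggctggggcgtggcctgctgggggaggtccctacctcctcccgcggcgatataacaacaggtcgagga
Des: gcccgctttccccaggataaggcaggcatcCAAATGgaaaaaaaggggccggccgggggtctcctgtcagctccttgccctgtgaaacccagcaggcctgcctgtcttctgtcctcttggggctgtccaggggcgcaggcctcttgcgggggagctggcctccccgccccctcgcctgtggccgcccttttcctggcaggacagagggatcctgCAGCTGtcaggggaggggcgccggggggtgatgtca
Synm: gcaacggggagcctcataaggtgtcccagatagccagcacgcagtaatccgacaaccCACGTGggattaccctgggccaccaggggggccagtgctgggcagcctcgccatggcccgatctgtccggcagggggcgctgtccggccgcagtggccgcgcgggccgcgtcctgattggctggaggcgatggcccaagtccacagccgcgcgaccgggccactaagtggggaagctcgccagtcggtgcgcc

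RefSeq promoters were matched for 7 of the 8 members, all but Krt19. On either strand, CANNTG was found at 2 places before Krt8, the forms CAATTG and CACCTG, at 2 before Des, at 1 each before Krt18, Synm and Sync, and at 0 before Vim and Nes. Among 32817 promoter windows of that length, 66.2% held at least 1 CANNTG and 31.8% at least 2. The form CACCTG, which is one form of CANNTG and was searched on both strands, lay 111 bases before the start of Krt8 and 214 bases before that of Krt18. It was found in 17.2% of all windows. CAGCTG, another form, was found before Des, 36 bases from its start, and in 13.0% of all windows. A match of these letters is a description of the window.

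Krt8 and Krt18 were close to absent from innervated soleus and abundant in every denervated library. Krt8 had 17.5 and 48.7 FPKM in DKO-labelled denervated soleus, 44.8 and 31.1 FPKM in denervated WT soleus, and 0.096 and 0.072 FPKM in innervated WT soleus. These levels rest on 1727 and 4564 fragments in DKO-labelled, 6053 and 2713 in denervated WT and 7 and 4 in innervated WT libraries. No denervated library came near the innervated ones, whereas the genotypes overlapped, with both the lowest and the highest denervated value in the DKO-labelled group.

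Krt18 had 17.8 and 71.2 FPKM in DKO-labelled denervated soleus, 80.8 and 55.5 FPKM in denervated WT soleus, and 0.582 and 0.227 FPKM in innervated WT soleus. It rests on 1386 and 5268 fragments in DKO-labelled, 8657 and 3839 in denervated WT, and 34 and 10 in innervated WT libraries. As with Krt8, DKO-labelled replicate 1 was the lowest of the denervated libraries. The mean levels in denervated WT were 452 times those in innervated WT for Krt8 and 168 times for Krt18. The fitted log2 differences between these groups, from edgeR's quasi-likelihood fit of the fragment counts, were 8.87 ± 0.72 (SE) for Krt8 and 7.43 ± 0.87 for Krt18. For DKO-labelled denervated against innervated WT soleus they were 8.71 ± 0.72 and 6.84 ± 0.85. Both comparisons share the innervated libraries, whose 11 Krt8 fragments in all set the precision of its fold.

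In the order of expression levels of all symbols, Krt8 stood at place 3104 and 1366 in DKO-labelled, 1402 and 2122 in denervated WT, and 14352 and 14523 in innervated WT libraries. Krt18 stood at place 3068 and 961 in DKO-labelled, 809 and 1255 in denervated WT, and 12136 and 13186 in innervated WT libraries. The keratin pair was thus far up the list in all 4 denervated libraries, and among genes of few fragments in both innervated ones.

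Krt19, which can pair with Krt8 in place of Krt18, took the other direction and stayed low. Its level was 0.256 and 0.195 FPKM in DKO-labelled denervated, 0.293 and 0.324 FPKM in denervated WT and 0.574 and 0.583 FPKM in innervated WT soleus. Those values are 18 and 13 fragments in DKO-labelled, 28 and 20 in denervated WT and 30 and 23 in innervated WT libraries. All 3 groups were separate on the FPKM scale, DKO-labelled lowest and innervated WT highest, but with fragments this few the order rests on small counts. Krt19 averaged under the filter of 0.5 FPKM and was left out of the tests. In a fit with no filter its log2 difference was -0.41 for DKO-labelled against WT, both denervated (edgeR adjusted p = 0.98), and -0.75 for denervated against innervated WT.

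**Figure D1:**
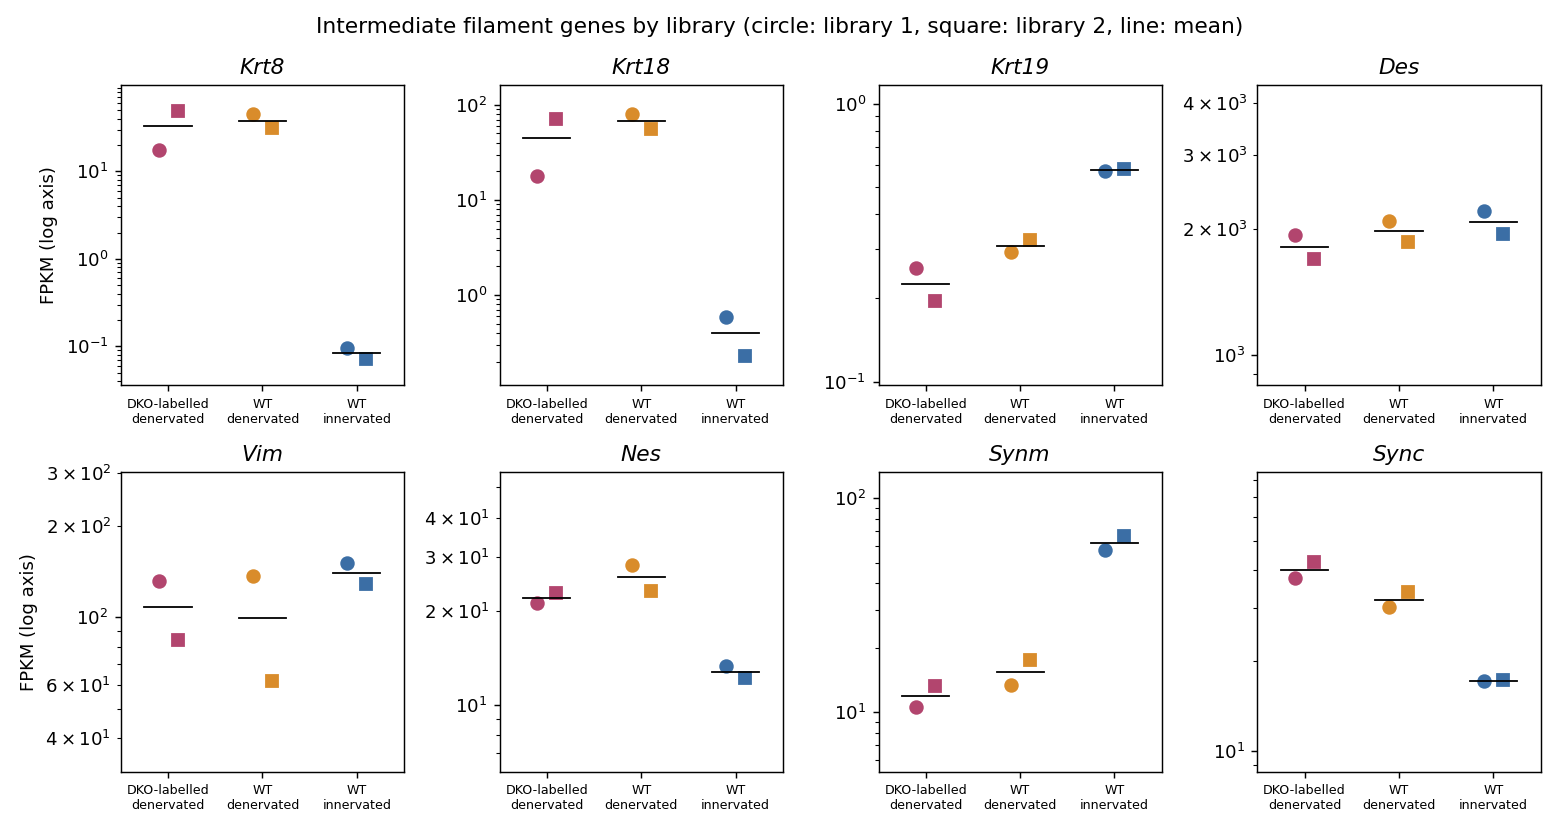
FPKM of the 8 intermediate filament genes on log axes that differ between panels, with 1 point per library, DKO-labelled denervated left, denervated WT in the middle and innervated WT right, and the group mean as a line. Krt8 and Krt18 are at 17.5 FPKM or more in each denervated library and under 0.6 FPKM in innervated ones, Synm and Krt19 are lower in denervated libraries, and Des differs little between groups.

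Because the keratins polymerise in pairs, the ratio of Krt8 to Krt18 was read within each library, where the scaling of the library cancels. On the FPKM scale, which is per length, it was 0.983 and 0.684 in DKO-labelled denervated, 0.554 and 0.560 in denervated WT, and 0.164 and 0.319 in innervated WT soleus. The groups did not overlap, and the denervated WT libraries differed by 0.006 from each other. The innervated ratios rest on 7 and 4 fragments of Krt8. With 2 libraries per group an exact permutation test could not go below a two-sided p of 0.333, so no test of the ratio was made.

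Of the 45 other keratins in the tables, 17 had 0 fragments in every library and 3, Krt80, Krt222 and Krt10, reached the filter. Krt80, a type II keratin of differentiating epithelia, was the highest of them, with 11.96 and 14.3 FPKM in DKO-labelled denervated, 10.1 and 16.4 FPKM in denervated WT and 1.79 and 1.89 FPKM in innervated WT soleus. It rose 7.75-fold in denervated against innervated WT (log2 2.95 ± 0.29, edgeR adjusted p = 0.00277), and every fit with other settings or without 1 library kept that call. Krt222, a keratin-related gene, fell by 2.12 on the log2 scale (edgeR adjusted p = 0.0476), a call lost in 3 of 9 other settings and in all but 1 of the fits that leave out a library. Among those 3 settings is the filter at a mean FPKM of at least 2, which Krt222 did not reach, so it was not tested there. Krt10 did not pass. The 44 without Krt80 summed to 2.21 and 1.54 FPKM in DKO-labelled, 2.46 and 2.54 FPKM in denervated WT and 4.57 and 5.50 FPKM in innervated WT libraries.

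**Figure D2:**
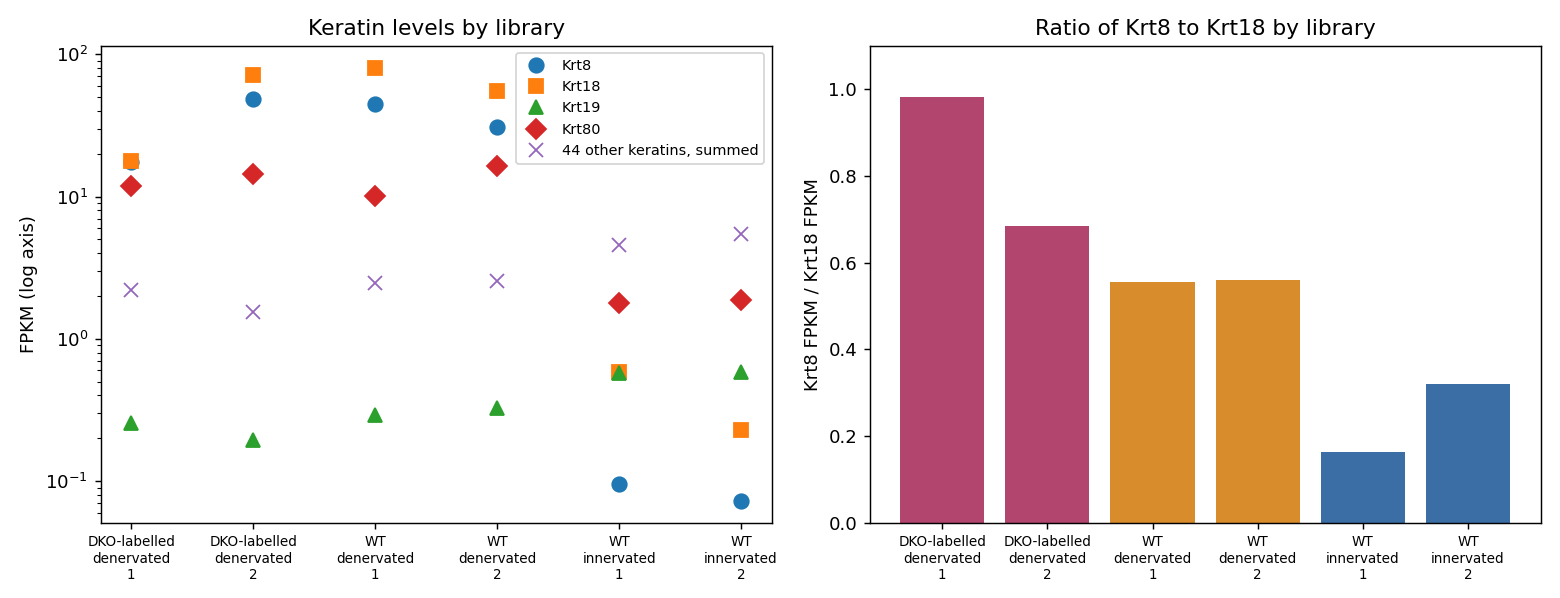
Left, FPKM on a log axis of Krt8, Krt18, Krt19, Krt80 and the sum of the 44 remaining keratins in each library. Right, the ratio of Krt8 to Krt18 FPKM as bars from 0, which is 0.983 and 0.684 in DKO-labelled denervated, 0.554 and 0.560 in denervated WT and 0.164 and 0.319 in innervated WT libraries.

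The tables list 20 other genes within 250 kb of the Krt8 and Krt18 pair, a window chosen after the values were seen. The 10 keratin entries on the Krt8 side, among them Krt78, Krt79 and Krt4, stayed at 0.0593 FPKM or less in every library. Of 9 tested genes on the Krt18 side, 1 rose and 2 fell in denervated against innervated WT, where 14.4% of all tested genes rose and 14.3% fell. Spryd3 rose (log2 0.82, edgeR adjusted p = 0.0291). Igfbp6, an insulin-like growth factor binding protein, and Csad, an enzyme of taurine synthesis, fell by 1.21 and 1.30 on the log2 scale (edgeR adjusted p = 0.00476 and 0.0219). Eif4b, a translation initiation factor and the nearest of them at 41.7 kb, was at 0.53 (adjusted p = 0.0523).

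The genes whose pattern over the 6 libraries was most like that of Krt8 were found on centred log2(FPKM + 0.5), by the root mean square difference, among 11176 genes. Krt18 came first, at 0.31 log2 units. The added 0.5 is above both innervated levels of Krt8, so it narrows the difference of the pair in the innervated libraries. Without it, the ratio of Krt8 to Krt18 FPKM ran from 0.164 in innervated WT replicate 1 to 0.983 in DKO-labelled replicate 1. Krt8 and Krt18 were selected on these same FPKM, so the rank of Krt18 is a description. Among those that followed were Aif1l, an actin-binding protein gene, at 0.59, the transcription factor Runx1 at 0.64 and the small nucleolar RNA gene Snord55 at 0.65. For Krt18 the nearest were Krt8, Aif1l, Snora3, Gadd45a and Runx1. Runx1 had 42.5 and 57.9 FPKM in DKO-labelled, 34.9 and 54.9 FPKM in denervated WT and 1.22 and 0.699 FPKM in innervated WT libraries. It did not show the low value in DKO-labelled replicate 1 that both keratins had, relative to denervated WT replicate 1.

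Epithelial and mesothelial cells express Krt8, Krt18 and Krt19, so their markers were read beside the pair. The 13 epithelial markers summed to 1.45 and 0.985 FPKM in DKO-labelled, 1.26 and 2.87 FPKM in denervated WT and 0.98 and 1.20 FPKM in innervated WT libraries, and none reached the filter. Of the 13, 5 are keratins that also stand among the other keratins above. Epcam, an adhesion molecule of epithelia, had 2 fragments or fewer in any library, and the adherens junction gene Cdh1 had between 11 and 33. Krt5 and Krt14, the pair of the basal epidermis, had 10 and 34.1 fragments in denervated WT replicate 2 and at most 1 in every other library. Cldn4, a tight junction gene, had 46 and 30 fragments in DKO-labelled, 40 and 103 in denervated WT and 0 in both innervated WT libraries.

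Of 6 mesothelial markers 5 were listed and 1, Msln (mesothelin), was tested. Msln had 24 and 33 fragments in DKO-labelled, 754 and 202 in denervated WT and 92 and 17 in innervated WT libraries. It rose in denervated against innervated WT (log2 2.41, edgeR adjusted p = 0.0452), a call lost without either innervated WT library, either DKO-labelled library or denervated WT replicate 1, and in 3 of 9 other settings. Among those 3 settings is the filter at a mean FPKM of at least 2, which Msln did not reach, so it was not tested there. Wt1 had 0 fragments in every library, and Upk3b and Upk1b at most 1. The part of epithelial and mesothelial cells in the Krt8 and Krt18 values was not tested.

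The remaining filament genes had smaller differences than Krt8 and Krt18, and not all in one direction. Des (chromosome 1, 75356918 to 75364290), the desmin gene, had 1930 and 1697 FPKM in DKO-labelled denervated, 2088 and 1863 FPKM in denervated WT and 2205 and 1945 FPKM in innervated WT soleus. Its values lay within 1.30-fold of each other, and in each group the first library was the higher. Des stood between place 13 and 32 of all symbols and made up 85.7% to 90.2% of the summed FPKM of the 8 genes in each library. Of 8 tested fibre markers, Ckm, Mb, Myh2 and Myh7 fell in denervated against innervated WT, where 14.3% of all tested genes fell, and 4 did not pass. The list summed to 10110 and 10590 FPKM in DKO-labelled, 13300 and 11420 FPKM in denervated WT and 27400 and 31050 FPKM in innervated WT libraries.

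Synm (chromosome 7, 74875046 to 74904628) encodes synemin, a large protein that needs desmin or vimentin to form filaments. It had 10.6 and 13.3 FPKM in DKO-labelled denervated, 13.4 and 17.6 FPKM in denervated WT and 57.5 and 66.5 FPKM in innervated WT soleus. Every denervated library was below every innervated one, with a mean in innervated WT 4.0 times that in denervated WT (fitted log2 difference -1.95 ± 0.21 for denervated against innervated WT). For DKO-labelled denervated against innervated WT it was -2.32 ± 0.22. The FPKM of Des per FPKM of Synm was 183 and 128 in DKO-labelled, 156 and 106 in denervated WT and 38.3 and 29.3 in innervated WT libraries.

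Sync encodes syncoilin, which binds desmin and alpha-dystrobrevin. It had 37.8 and 42.6 FPKM in DKO-labelled denervated, 30.04 and 33.8 FPKM in denervated WT and 17.0 and 17.2 FPKM in innervated WT soleus. The 3 groups were separate, DKO-labelled highest and innervated WT lowest. The fitted log2 difference of denervated against innervated WT was 0.99 ± 0.15. The ratio of Synm to Sync, both per length, was 0.279 and 0.312 in DKO-labelled, 0.446 and 0.521 in denervated WT and 3.38 and 3.86 in innervated WT libraries, so that the order of the pair was opposite in innervated and denervated muscle.

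The tables give Sync the same locus as Rbbp4, a histone chaperone gene (chromosome 4, 128964864 to 129012614 for both), and its fragments were not whole numbers in 5 of 6 libraries. The sources used here do not say how the authors divided shared fragments, so the level of Sync is uncertain. Rbbp4 itself was at 41.8 and 47.8 FPKM in DKO-labelled, 43.1 and 43.98 FPKM in denervated WT and 23.7 and 23.0 FPKM in innervated WT libraries. Its ratio of denervated to innervated WT was 1.86, against 1.86 for Sync. The part of Rbbp4 in the Sync values was not tested.

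Nes (chromosome 3, 87775014 to 87784373) encodes nestin. It had 21.2 and 22.9 FPKM in DKO-labelled denervated, 28.1 and 23.3 FPKM in denervated WT and 13.4 and 12.2 FPKM in innervated WT soleus. Each denervated library was above both innervated ones, with a fitted log2 difference of 1.11 ± 0.16 for denervated against innervated WT. The genes of most similar pattern were Syap1, at a root mean square difference of 0.065 log2 units, and Murc, a caveolar protein gene of muscle, at 0.075, followed by Klf5, Hsd11b2 and Rdh10.

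Nestin is also made by activated satellite cells and Schwann cells, and in bulk tissue fewer cells of a type and less RNA per cell cannot be told apart. In denervated against innervated WT, 14.4% of all tested genes rose and 14.3% fell. Of 9 satellite cell and myoblast markers, 8 were tested. Cdh15 (M-cadherin) rose (log2 0.95, edgeR adjusted p = 0.0143) and Heyl fell by 0.97 (adjusted p = 0.0481), while Pax7 and Myf5 did not pass. The Heyl call was lost in 2 of 9 other settings and in 3 of 6 fits without 1 library. The list summed to 65.9 and 81.4 FPKM in DKO-labelled, 59.8 and 100 FPKM in denervated WT and 41.4 and 53.2 FPKM in innervated WT libraries. Of 8 Schwann cell markers, 2 rose, Ngfr and Cdh19, and 3 fell, among them the myelin gene Mbp and S100b, and the list summed to 29.9 and 26.7 FPKM in DKO-labelled, 32.5 and 29.1 FPKM in denervated WT and 56.0 and 57.3 FPKM in innervated WT libraries. Their part in the Nes values was not tested.

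Vim (chromosome 2, 13495937 to 13504453) encodes vimentin, the filament protein of fibroblasts, endothelium and leukocytes. It had 132 and 83.9 FPKM in DKO-labelled denervated, 136 and 61.9 FPKM in denervated WT and 151 and 128 FPKM in innervated WT soleus. The groups overlapped, and in each of them the second library was the lower. The fitted log2 difference of denervated against innervated WT was -0.42 ± 0.39. It was -1.10 without denervated WT replicate 1 and 0.041 without denervated WT replicate 2.

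Col1a1 and the summed fibroblast markers were lowest in the library where Vim was lowest, denervated WT replicate 2. Markers of the list differed in spread: the SE of the log2 difference of denervated against innervated WT was 0.94 for Col1a1 and 0.17 for Dcn. Col1a1, a collagen gene, had 27.1 and 10.2 FPKM in DKO-labelled, 29.3 and 3.28 FPKM in denervated WT and 63.4 and 38.6 FPKM in innervated WT libraries. The 10 fibro-adipogenic and fibroblast markers summed to 547 and 439 FPKM in DKO-labelled, 624 and 390 FPKM in denervated WT and 1039 and 784 FPKM in innervated WT libraries, with Dcn and Dpt called lower in denervated against innervated WT and 8 not passing. Over all tested genes 14.4% rose and 14.3% fell in that comparison. Of 7 endothelial markers 7 fell, and the list summed to 62.4 and 40.6 FPKM in DKO-labelled, 60.0 and 51.3 FPKM in denervated WT and 120 and 133 FPKM in innervated WT libraries. Smooth muscle and pericyte markers fell at 5 of 6 tested, with sums of 89.2 and 64.6 FPKM in DKO-labelled, 87.5 and 72.2 FPKM in denervated WT and 170 and 175 FPKM in innervated WT libraries. Of 7 tested macrophage and leukocyte markers Cd68 rose and 6 did not pass, with sums of 226 and 134 FPKM in DKO-labelled, 235 and 189 FPKM in denervated WT and 210 and 116 FPKM in innervated WT libraries. The part of these cells in the Vim values was not tested.

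**Figure D3:**
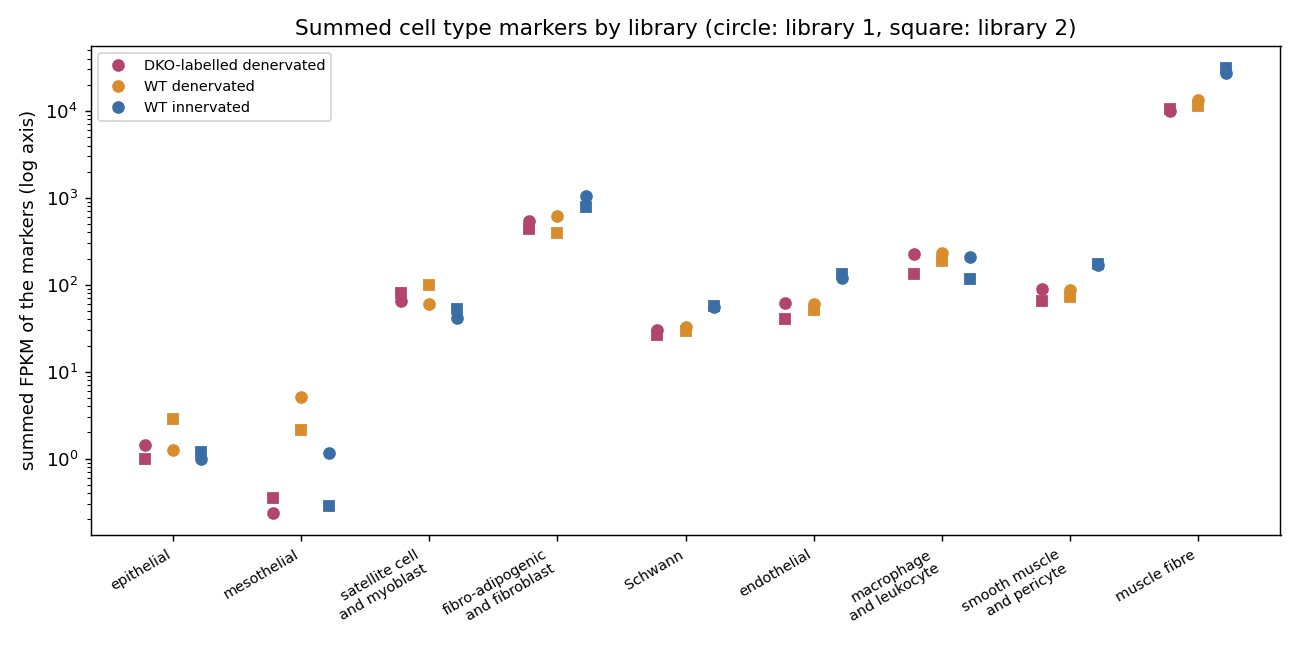
Summed FPKM, on a log axis, of the markers of 9 cell types in each library, with DKO-labelled denervated left, denervated WT in the middle and innervated WT right within each cell type. Epithelial markers sum to 2.87 FPKM or less and mesothelial markers to 5.13 FPKM or less in every library, while fibre, endothelial and fibroblast sums are lower in denervated libraries.

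In the order of mean FPKM, DKO-labelled denervated soleus had Des first, then Vim, Krt18, Sync, Krt8, Nes, Synm and Krt19, and neighbours among Krt18, Sync, Krt8 and Nes overlapped. Denervated WT soleus had Des, Vim, Krt18, Krt8, Sync, Nes, Synm and Krt19, where Vim and Krt18, and Krt8 and Sync, overlapped. Innervated WT soleus had Des, Vim, Synm, Sync, Nes, Krt19, Krt18 and Krt8, where Krt19 and Krt18 overlapped. The other neighbours in each order had values that did not overlap. Krt8 and Krt18 together made up 1.63% and 6.05% of the summed FPKM of the 8 genes in DKO-labelled, 5.19% and 4.15% in denervated WT and 0.0277% and 0.0138% in innervated WT libraries.

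Of the 7 tested members, 4 were called higher and 1 lower in denervated against innervated WT, where 28.7% of all 12247 tested genes were called, 14.4% higher and 14.3% lower (edgeR, adjusted p under 0.05). Since members were chosen with this contrast in view, nothing is read from that count. The same 4 and 1 were called for DKO-labelled denervated against innervated WT, where 31.4% of all genes were called, 15.2% higher and 16.2% lower, and the innervated libraries are shared.

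Between genotypes, the comparison set libraries labelled as lacking Dach2 and Hdac9 against WT libraries, all denervated. None of the 7 tested members passed the test, by edgeR at an adjusted p under 0.05, by DESeq2, by limma or in any of the 15 alternative fits, and 0 had an unadjusted p under 0.05 in the main edgeR fit. Over all genes 0.0408% were called, 0.0245% higher and 0.0163% lower in DKO-labelled muscle, and 748 of 12247 had an unadjusted p under 0.05 in the main edgeR fit. Krt8 was at a log2 difference of -0.17 (95% interval -1.25 to 0.91, edgeR adjusted p = 0.993) and Krt18 at -0.59 (-2.08 to 0.90, adjusted p = 0.973). These intervals hold differences of more than 2-fold for Krt8 and 4-fold for Krt18, so the data do not show that the genotypes had equal levels.

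The first libraries of the groups have the consecutive sample numbers 14043 to 14045 and the second 14049 to 14051. Within these runs the log2 difference of Krt8 between genotypes was -1.32 in the first and 0.67 in the second, and that of Krt18 was -2.15 and 0.38, so the direction differed between runs. Without DKO-labelled replicate 1 the values were 0.39 for Krt8 and 0.091 for Krt18.

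Sync had the smallest p of the members between genotypes, at a log2 difference of 0.36 (95% interval -0.00083 to 0.71, edgeR adjusted p = 0.818), and was higher in DKO-labelled muscle in both runs, at 0.35 and 0.36. Synm was at -0.37 (-0.87 to 0.13, adjusted p = 0.943) and lower in both runs, at -0.34 and -0.39. Nes was at -0.21 (-0.60 to 0.17, adjusted p = 0.968), Des at -0.08 (-0.55 to 0.39, adjusted p = 0.991) and Vim at 0.14 (-0.78 to 1.07, adjusted p = 0.993). The median over the 7 tested members was -0.17, beside -0.020 over all tested genes.

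**Figure D4:**
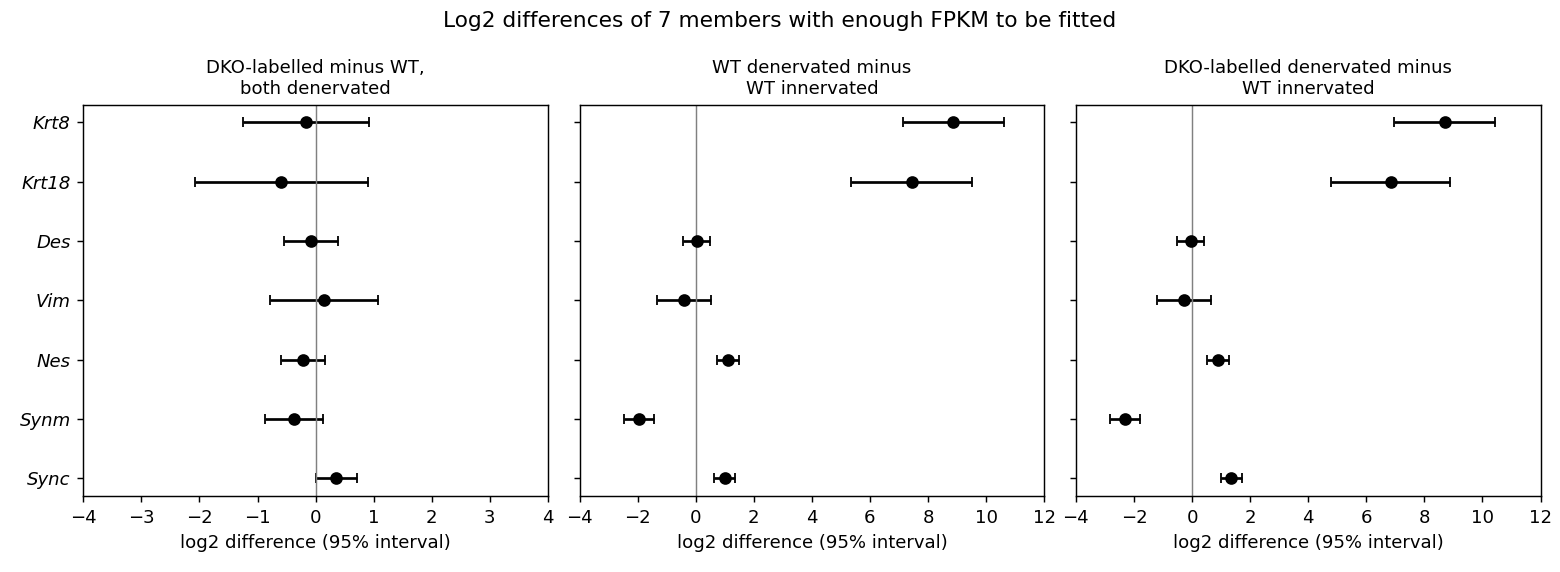
Log2 differences with 95% intervals from edgeR's quasi-likelihood fit for the 7 members above the FPKM filter, in DKO-labelled against WT (both denervated, left), denervated against innervated WT (middle) and DKO-labelled denervated against innervated WT (right). The horizontal axes differ in range; every interval of the left panel includes 0, and the middle and right panels share the innervated libraries and are descriptions.

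The other genes of the filament network were read in denervated against innervated WT, where 14.4% of all tested genes rose and 14.3% fell. The lists of these genes were chosen with earlier results of these data known, so their calls are not independent of those results. Of 11 other intermediate filament genes 4 were tested. The nuclear lamins Lmna and Lmnb2 rose 2.91-fold and 3.61-fold (edgeR adjusted p = 0.00324 and 0.0141), and Prph, the peripherin of peripheral neurons, fell 2.96-fold (adjusted p = 0.0365), a call lost in 2 of 9 other settings and kept in 1 of 6 fits without 1 library. Among those 2 settings is the filter at a mean FPKM of at least 2, which Prph did not reach, so it was not tested there. Lmna had 207 and 217 FPKM in DKO-labelled, 209 and 185 FPKM in denervated WT and 65.2 and 74.6 FPKM in innervated WT soleus. For Lmna, Lmnb2 and Prph, denervated and innervated libraries did not overlap in FPKM. The share of all genes separated in this way is not given here. Lmnb1, the third lamin gene, did not pass (log2 0.13, edgeR adjusted p = 0.838) and overlapped, with 2.60 and 1.40 FPKM in DKO-labelled, 2.74 and 1.35 FPKM in denervated WT and 1.81 and 2.07 FPKM in innervated WT libraries. The median log2 difference of the 4 was 0.84, beside 0.0022 over all tested genes.

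Plakins and desmosomal proteins anchor intermediate filaments. Of 14 listed, 13 were in the tables and 7 were tested, 3 rose and 2 fell, with a median of 0.27. Macf1, a plakin that links actin and microtubules, rose 3.46-fold (edgeR adjusted p = 0.00324). The desmosomal linkers Pkp2 and Jup (plakoglobin) rose 2.71-fold and 2.31-fold (adjusted p = 0.0059 and 0.00876). Ppl and Dst, which encode other plakins, fell 2.32-fold and by 0.80 on the log2 scale (adjusted p = 0.0365 and 0.0460). Both calls were lost in 2 of 9 other settings, and in fits without 1 library that of Ppl was kept in 2 of 6 and that of Dst in 1 of 6. For Ppl, 1 of the 2 settings is the filter at a mean FPKM of at least 2, which it did not reach, so it was not tested there. Plec, the plakin that ties desmin to Z-discs and costameres, was at 80.9 and 51.8 FPKM in DKO-labelled, 57.5 and 45.6 FPKM in denervated WT and 64.2 and 70.9 FPKM in innervated WT libraries and did not pass. Dsp, the desmoplakin that holds keratin at desmosomes, did not reach the filter and was not tested. It had 0.031 and 0.053 FPKM in DKO-labelled, 0.162 and 0.159 FPKM in denervated WT and 0.027 and 0.024 FPKM in innervated WT libraries. Those values are 18 and 29, 131 and 83, and 12 and 8 fragments, so the denervated WT libraries were the highest.

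Of 18 costamere and Z-disc partners 3 rose and 5 fell, with a median of -0.21. Tln1, a talin that couples integrins to actin, rose 2.47-fold (edgeR adjusted p = 0.00912), and Tln2, the talin isoform typical of mature muscle, fell 2.32-fold (adjusted p = 0.0118). Dtna, the alpha-dystrobrevin that syncoilin binds, rose 1.99-fold (adjusted p = 0.0245). Tln1 had 45.9 and 31.9 FPKM in DKO-labelled, 44.6 and 37.2 FPKM in denervated WT and 17.3 and 18.2 FPKM in innervated WT soleus.

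Of 16 chaperones and kinases that act on intermediate filaments, 13 were tested, 4 rose and 2 fell, with a median of 0.48. The small heat shock protein gene Hspb8 rose 8.02-fold (edgeR adjusted p = 0.00384), with 1333 and 1271 FPKM in DKO-labelled, 997 and 1928 FPKM in denervated WT and 190.0 and 196 FPKM in innervated WT soleus. Dnajb6, a co-chaperone of desmin, rose 1.76-fold (adjusted p = 0.00996), and Cdk5r1, the activator of a kinase that phosphorylates nestin, rose 5.07-fold (adjusted p = 0.00701). Mapkapk2, a stress kinase, fell 3.33-fold (adjusted p = 0.00221), and every fit run kept that call. Cryab, the desmin chaperone alpha-B-crystallin, had 2935 and 2237 FPKM in DKO-labelled, 1785 and 2281 FPKM in denervated WT and 1129 and 1634 FPKM in innervated WT libraries and did not pass.

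Of 15 regulators and partners of simple keratins, 14 were in the tables and 13 were tested, 1 rose, 2 fell and the median was 0.03. Klf5 rose 2.59-fold (edgeR adjusted p = 0.0176), and Fos and Klf4 fell 8.28-fold and 3.53-fold (adjusted p = 0.00633 and 0.0135). Ets2, whose protein binds the human KRT18 gene, was at 18.4 and 22.1 FPKM in DKO-labelled, 19.6 and 23.7 FPKM in denervated WT and 23.9 and 23.0 FPKM in innervated WT libraries and did not pass. Between genotypes 0 of the 113 tested genes of all lists, cell type markers included, passed edgeR's test at an adjusted p under 0.05. An unadjusted p under 0.05 was found for 4 of the 113, among them Msln, Cdh15 and Cd68, and for 748 of all 12247 tested genes. DESeq2 called 1 of them, Msln, as did edgeR with no filter, and limma called 0. Msln was lower in the DKO-labelled libraries (log2 -3.70, edgeR adjusted p = 0.309).

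Across the 6 filament lists 27 genes were called in denervated against innervated WT, of which 19 were tested and called in all 9 other settings and 2, Krt80 and Mapkapk2, in all 6 fits without 1 library. Krt222, Prph, Dst, Ppl, Dmd, Nrap, Bag3 and Cdk5r1 were the 8 not called in some setting. Krt222, Prph, Ppl and Cdk5r1 averaged under 2 FPKM, so the filter of at least 2 left them untested. For Cdk5r1 that filter was the only such setting. Over all 12247 tested genes, 28.7% were called in denervated against innervated WT. All lists together held 113 tested genes, cell type markers included. Of the 27, 18 lost the call without innervated WT replicate 1 and 25 without innervated WT replicate 2, 7 of them without the second and not without the first. Of 27 called cell type markers, 20 were called in all 9 settings and 1 in all 6 fits without 1 library, while 23 lost the call without innervated WT replicate 1 and 26 without replicate 2. Msln, Heyl, Dcn, Dpt, S100b, Cdh19 and Myh7 were the 7 not called in some setting. Over all genes, calls numbered 468 without innervated WT replicate 1 and 202 without replicate 2, against 3512 with all libraries.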

How the data were processed

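Each library has 1 deposited table with 3 measures per gene. Per the file headers, the authors' FPKM scales fragments by transcript length and a library factor, a further deposited signal is the raw fragments times 1 factor per library (0.6643 to 1.5641), and the deposited raw fragments are estimated counts, 88.3% to 89.0% of them whole within 1e-06. Tools named in the submitters' processing notes are Cuffdiff 2.0.2, TopHat2 2.0.3, Bowtie2 2.0.0.7, Trim Galore 0.2.1 and CASAVA 1.8.2, and the build is mm9. The sources used here state no roles, annotation or strandedness.

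Entries are listed repeatedly in 65415 lines. Distinct entries (21792) of 1 symbol were summed. Estimated counts were rounded and tested with edgeR 4.0.16 (R 4.3.3; glmQLFit, glmQLFTest, TMM, all 6 libraries, group means, mean FPKM of at least 0.5, 12247 genes), two-sided with Benjamini-Hochberg adjustment over all tested genes and calls under 0.05. SE is the log2 difference over the square root of F, and 95% intervals use the fit's degrees of freedom. The test was also run on counts simulated with the same spread for every gene, which is no check of the spread in these data. Alternatives used limma 3.58.1, DESeq2 1.42.0, other scaling, filters and samples. Libraries of a group differed by more than counting noise (chi-square per degree of freedom 31.8 to 165) and were each counted.

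Members, lists and tests were chosen with earlier results of these data known. Named are all members, Dach2 and Hdac9, the 5 most similar genes of Krt8, Krt18, Krt19 and Nes by pattern, and up to 4 called genes per list or 2 of smallest p. Some genes that this rule names are not reported here. Other genes named were chosen after their values were seen. Patterns closest to Krt19, at low counts, were Rbm33, Cast, Kdm3b, Zfyve1 and Zfand3. The 0.5 added before taking log2 is of the size of the Krt19 levels and narrows its differences. The FPKM of these genes differed by smaller folds between denervated and innervated groups than that of Krt19. Replicates are numbered in accession order.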

Additional observations from a re-analysis of the deposited data

How the results depend on the processing

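Over all genes, calls between the genotypes in denervated muscle numbered 5 in the main edgeR fit and changed with most settings: 10 with RLE size factors, 2 with upper-quartile factors, 181 in DESeq2, 35 and 34 in limma on log2(FPKM + 0.5) and log2(FPKM + 1), 60 with no filter, 2 at a mean FPKM of at least 2, 0 in the fit of the 4 libraries compared, and 0 to 119 without 1 library. The cause was not tested. The number of members called between genotypes was 0 in each of these fits. For denervated against innervated WT the 3512 calls became 202 to 5357 without 1 library.

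Directions between genotypes that were not called turned in fits without 1 library: Krt8 ranged from -1.10 to 0.39 (0.12 without denervated WT replicate 1), Krt18 from -1.93 to 0.091, Des from -0.17 to 0.0038 (0.0038 without denervated WT replicate 1, 0.0028 without DKO-labelled replicate 2) and Vim from -0.31 to 0.82 (-0.21 without DKO-labelled replicate 1). Nes, Synm and Sync kept their direction in all 15 alternatives. For denervated against innervated WT, Krt8 ranged from 5.14 to 9.11 and Krt18 from 5.61 to 8.32, lowest in limma with a pseudocount of 1, which lowers folds over near-zero levels by its construction.

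The labels give no shared replicate numbers. With the run of sample numbers as a replicate block, 4 genes were called between genotypes, 0 of them members. Differences between first and second libraries correlated across genes at 0.45 between the denervated groups and at 0.15 and 0.23 with innervated WT. Depth limits Krt19 (13 to 30 fragments) and innervated Krt8.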
